A study of Mus musculus with 12 samples.

Results

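Fibroblast and interstitial matrix genes were followed in 12 mouse melanoma tumours as a set of 34 genes chosen by their symbols. The set holds 7 chains of fibrillar collagens, 6 chains of other collagens, 6 adhesive and matricellular glycoproteins, 5 proteoglycans, 4 elastic fibre proteins and 6 genes that mark fibroblasts and contractile stromal cells. All 34 were found among the 34436 genes of the table, by the GENCODE M21 symbol of their gene ID. All 34 also passed the filter on low values, which asked for at least 10 normalised reads in at least 3 tumours.

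Polyadenylated RNA had been sequenced from 3 tumours of each of 4 passages. Every group descends from YUMM1.7, a single melanoma line from a C57BL/6 mouse. The F0 tumours grew after YUMM1.7 cells were placed in syngeneic mice, and the N2.1, Balb/c-2 and CBA tumours grew from dissociated tumour cells passed on later in the series, in that order. The labels give the passage names and no strain, age or sex of the hosts, and the letters A, B and C name different tumours of a passage. Errors and p-values therefore cover the spread between tumours of 1 passage and not between repeated series of passages. By the library names, 2 flow cells were used: the first held F0, N2.1 and Balb/c-2 A (7 tumours), the second held CBA and the remaining Balb/c-2 tumours (5 in all). Only Balb/c-2 was on both. A fit with flow cell as covariate therefore takes the flow cell difference from Balb/c-2 A against B and C. In such a fit, contrasts of Balb/c-2 with F0 or N2.1 rest on Balb/c-2 A alone. Depth ran from 34721735 to 59404254 reads. The tumours are labelled melanoma, and defining melanocyte genes were close to absent in them: Tyr was at 0 in all but Balb/c-2 A (0.827 normalised reads), Dct reached at most 7.44 and Pmel 59.6, while Mitf lay between 318 and 1289.6.

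Fibroblasts are the main makers of the interstitial matrix, the fibrous material between cells. They secrete procollagen chains that are trimmed and assembled into fibrils, and proteoglycans, glycoproteins and elastic fibres attach to these fibrils. In tumours the matrix can come from host fibroblasts, from pericytes and from the tumour cells themselves, and mesenchymal melanoma lines are known to make collagens and fibronectin. RNA of a whole tumour does not separate these sources.

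Per length of transcript, the most abundant members were Bgn, Sparc, Col3a1, Col1a2, Fn1 and Col1a1. Bgn encodes biglycan, a small leucine-rich proteoglycan that binds collagen, and its mean over the 12 tumours was 48410.4 normalised reads per kb. Sparc, a collagen-binding matricellular protein, followed at 25201 reads per kb, and the type III collagen chain Col3a1 at 21619 reads per kb. Fmod and Tagln stood at the other end of the order. The set took between 0.917% (Balb/c-2 C) and 2.897% (F0 B) of all gene signal of a tumour, and its collagen chains between 0.475% and 1.557% of it. Within the passages this share was 1.922% to 2.897% in F0, 1.619% to 2.192% in N2.1, 0.917% to 1.698% in Balb/c-2 and 1.307% to 2.834% in CBA, so F0 and Balb/c-2 did not overlap and CBA covered most of the range.

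**Figure D1:**
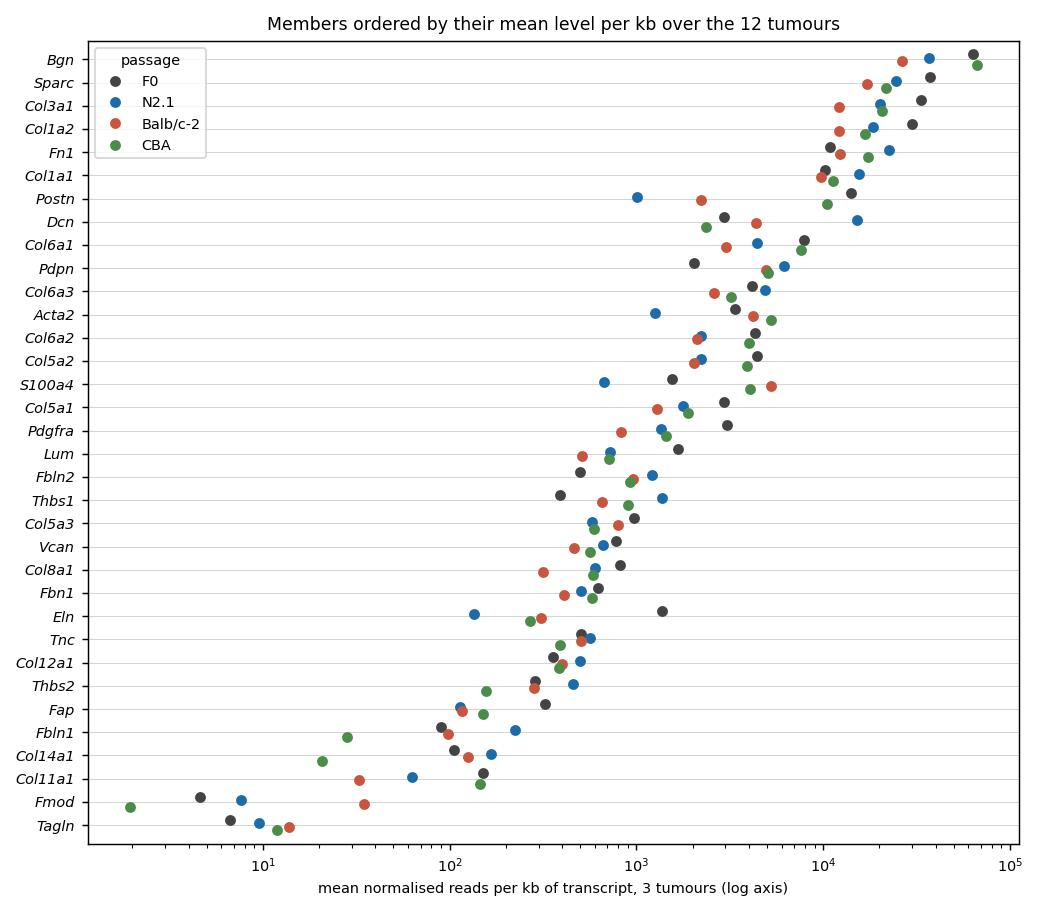
Mean level of each member in normalised reads per kb of its longest protein-coding transcript (log axis), 1 point per passage as the mean of 3 tumours. Bgn, Sparc and Col3a1 lead the order, Postn and Dcn spread widely between passages, and Fmod and Tagln lie lowest.

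F0 had the highest mean of the 4 passages for 17 of the 34 members, N2.1 for 12, Balb/c-2 for 3 and CBA for 2. Balb/c-2 had the lowest mean for 16 members, and each of the others for 6. Tumours of Balb/c-2 and of CBA also differed more among themselves. The SD exceeded 50% of the mean for 15 members in each of these passages, against 7 in F0 and 6 in N2.1. With limma's moderated F test over the 4 passages, 9 of 34 members (26.5%) differed at an adjusted p under 0.05, against 10.7% of all 17491 genes tested: Col1a2, Col14a1, Postn, Bgn, Dcn, Fbln1, Fap, Pdgfra and Acta2. Leaving out 1 tumour gave 3 (F0 A, N2.1 A or N2.1 C), 4 (F0 B, N2.1 B or CBA A), 6 (Balb/c-2 A, Balb/c-2 C or CBA C), 7 (F0 C), 10 (CBA B) or 14 (Balb/c-2 B). The genes called in all, 1880 with all 12 tumours, then ranged from 956 (without N2.1 C) to 3199 (without Balb/c-2 B). Flow cell as covariate gave 3, while the genes called in all went from 1880 to 1096.

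N2.1 tumours had less Postn and Fap and more Dcn and Pdpn than F0 tumours. Postn encodes periostin, a matricellular protein of activated fibroblasts, and Fap encodes a serine protease of such cells. Dcn encodes decorin, a small proteoglycan on collagen fibrils, and Pdpn encodes podoplanin, a membrane glycoprotein of lymphatic vessels and of some fibroblasts and tumour cells. These 4 of 34 members (11.8%) passed, 2 higher and 2 lower, against 7.91% of all genes tested (5% higher and 2.9% lower). The 6 tumours did not overlap for 22 members (64.7%), against 38.2% of all genes, and the median log2 change of the members was -0.55 against -0.02 for all genes. In whole tumours, fewer cells of a type and less RNA per cell cannot be told apart. The count of 4 fell to 1 without F0 A, F0 B, N2.1 A or N2.1 C, with Postn the remaining member each time, and was 3 without F0 C or N2.1 B and 11 when only these 6 tumours were fitted. The genes called in all, 1383 with all 12 tumours, were in the same order 815, 509, 462, 479, 894, 874 and 2615.

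Balb/c-2 tumours had less of 7 members than F0 tumours and more of none. The 7 were the fibrillar collagen chains Col1a2, Col3a1 and Col5a1, the matricellular genes Postn and Sparc, and the fibroblast markers Fap and Pdgfra. That was 20.6% of the members, against 3.51% of all genes tested (1.88% higher and 1.63% lower). The tumours did not overlap for 16 members (47.1%), 15 of them lower, against 21.3% of all genes, and the median log2 change was -0.78 against -0.02 for all genes. Among F0 tumours, leaving out A gave a count of 1, leaving out B gave 0 and leaving out C gave 4, and leaving out Balb/c-2 C gave 1. Tumours that enter only through the shared spread mattered too, with 3 members left when N2.1 A or N2.1 B was dropped, 2 for N2.1 C and 4 for CBA A. Fits with flow cell as covariate or with the first flow cell alone compare only Balb/c-2 A with F0. With flow cell as covariate 1 member passed, Col8a1, which is none of the 7, while the genes called in all went from 614 to 261, and with tumours of the first flow cell alone, which leaves Balb/c-2 A, the 2 that passed were Pdgfra and Col8a1.

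**Figure D2:**
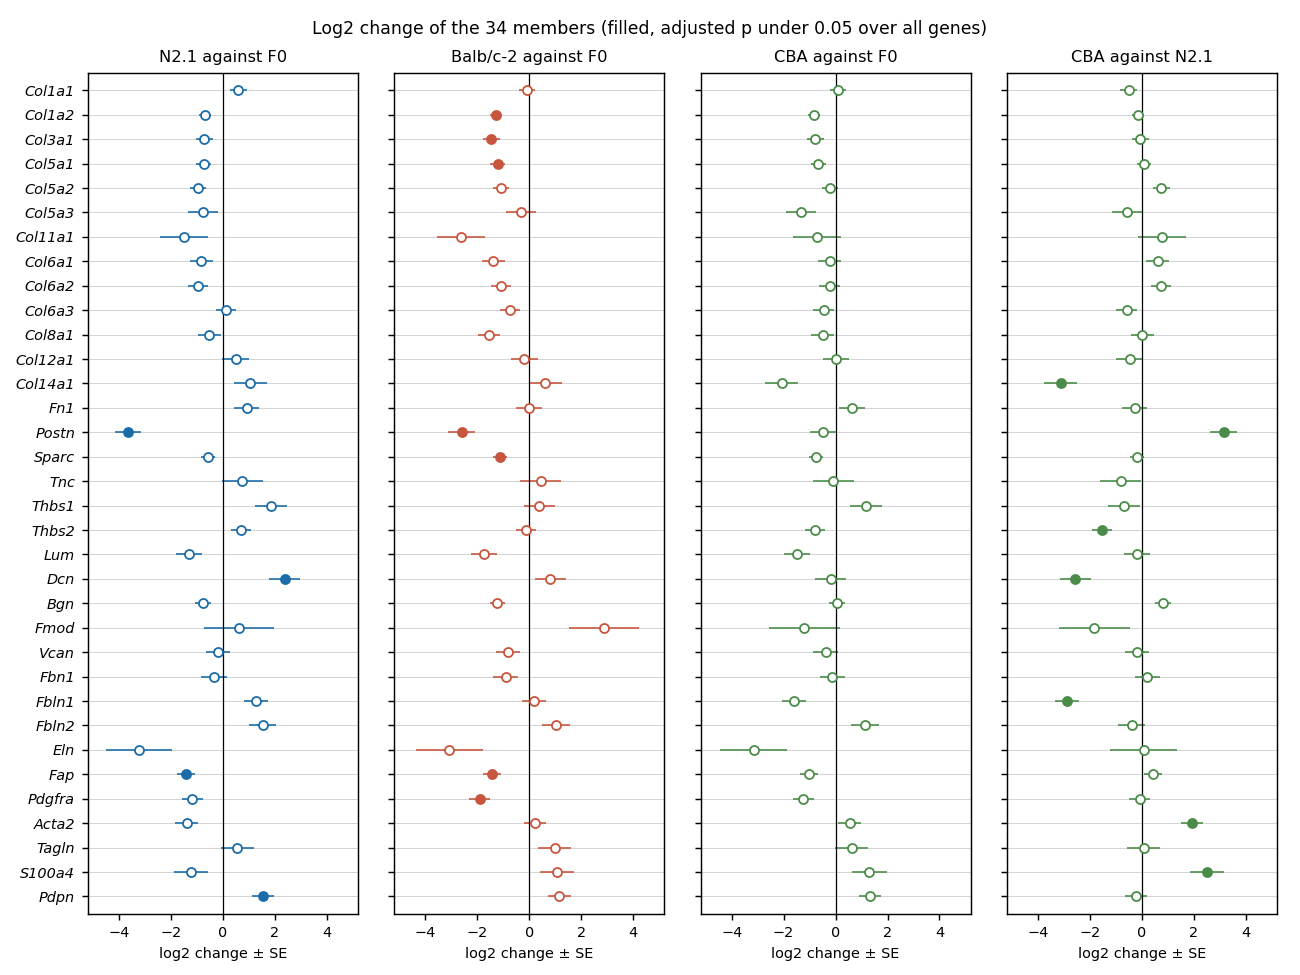
Log2 change of each of the 34 members, with its SE, in 4 of the 6 comparisons. Filled points passed at an adjusted p under 0.05 over all genes: 4 in N2.1 against F0, 7 in Balb/c-2 against F0 (each lower), 0 in CBA against F0 and 7 in CBA against N2.1.

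CBA tumours had more Postn, Acta2 and S100a4 and less Col14a1, Thbs2, Dcn and Fbln1 than N2.1 tumours. These are 7 of 34 members (20.6%), against 7.15% of all genes tested (2.09% higher and 5.06% lower), and the tumours did not overlap for 9 members (26.5%), against 33.6% of all genes. The CBA and N2.1 tumours were on different flow cells, and 0 members passed with flow cell as covariate, which rests on the Balb/c-2 tumours, while the genes called in all went from 1250 to 118. Leaving out 1 tumour gave counts of 3 (N2.1 A), 4 (N2.1 B), 2 (N2.1 C), 3 (CBA A) and 2 (CBA C). The genes called in all were in the same order 633, 680, 545, 751 and 597.

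No member passed in the other 3 comparisons. CBA against F0 had 0 of 34 with limma (12 at an unadjusted p under 0.05), 0 with edgeR and 5 with DESeq2, against 5.04% of all genes tested with limma (2.36% higher and 2.69% lower). The tumours did not overlap for 11 members (32.4%), against 29.5% of all genes. Balb/c-2 against N2.1 had 0 (8 unadjusted, 0 with edgeR and 2 with DESeq2), against 2.32% of all genes (0.943% higher and 1.38% lower), and 8 members did not overlap (23.5%), against 20.1% of all genes. CBA against Balb/c-2 had 0 (8 unadjusted, 0 with edgeR and 6 with DESeq2), against 1.04% with limma (0.109% higher and 0.932% lower). In it 8 members did not overlap (23.5%), against 12.7% of all genes. The shares called are those of limma, and the tools differed in how many of all genes they called. For these 3 comparisons in order, limma called 882, 406 and 182 genes, edgeR 679, 300 and 100, and DESeq2 1786, 1281 and 1035. Without Balb/c-2 B, 6 members passed in Balb/c-2 against N2.1 and 2 in CBA against F0. The genes called in all went there from 406 to 1486 and from 882 to 1155. Without F0 C, 2 members passed in CBA against F0, and the genes called in all went from 882 to 638. CBA and F0 shared no flow cell, and with flow cell as covariate, which rests on the Balb/c-2 tumours, 0 members passed and the genes called fell from 882 to 65.

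The promoters of 4 of the 7 members that fell in Balb/c-2 against F0 are shown as examples, and those of Col1a2, Sparc and Fap are not. None of the gene's own GENCODE M21 exons lies in the 250 bases before its start (RefSeq, GRCm38.p6). Exons of other genes in these windows were not looked for. Capitals, of which the Pdgfra window has none, mark CAGACA, a run of letters that SMAD proteins of the TGF-beta pathway can bind, on either strand (TGTCTG on the other), and TATAAA on the gene's strand, a letter run looked for after the sequences had been seen.
Postn, chr3:54360857-54361106, plus strand: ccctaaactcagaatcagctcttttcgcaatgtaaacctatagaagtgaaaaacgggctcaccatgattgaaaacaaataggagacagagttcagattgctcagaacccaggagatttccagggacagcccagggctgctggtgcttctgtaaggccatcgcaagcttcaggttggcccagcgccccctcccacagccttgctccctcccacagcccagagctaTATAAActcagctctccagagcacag
Col3a1, chr1:45311288-45311537, plus strand: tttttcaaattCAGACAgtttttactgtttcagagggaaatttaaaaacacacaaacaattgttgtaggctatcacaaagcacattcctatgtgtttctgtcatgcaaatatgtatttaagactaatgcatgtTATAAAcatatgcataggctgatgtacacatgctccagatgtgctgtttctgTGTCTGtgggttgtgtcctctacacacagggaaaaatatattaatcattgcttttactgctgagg
Col5a1, chr2:27886175-27886424, plus strand: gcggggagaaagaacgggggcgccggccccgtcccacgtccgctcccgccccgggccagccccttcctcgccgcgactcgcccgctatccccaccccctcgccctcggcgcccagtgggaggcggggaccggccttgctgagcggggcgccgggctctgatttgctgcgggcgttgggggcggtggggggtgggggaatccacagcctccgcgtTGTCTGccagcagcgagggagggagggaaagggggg
Pdgfra, chr5:75152001-75152250, plus strand: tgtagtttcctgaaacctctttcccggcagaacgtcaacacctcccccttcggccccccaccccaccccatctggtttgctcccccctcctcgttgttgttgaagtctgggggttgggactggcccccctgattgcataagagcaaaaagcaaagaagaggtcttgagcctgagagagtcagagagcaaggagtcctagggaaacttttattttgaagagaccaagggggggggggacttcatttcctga
The Postn window shown is 1 of 2 for this gene. Promoter windows were found for 23 of the 34 members (27 windows). CAGACA on either strand was in 10 of these 27 windows, and in 17.1% of 32851 promoters of the same length. By gene it was in 9 of 23, among them Col1a2 and Sparc, which are not shown. TATAAA was in 5 of the 27 windows (4 of 23 genes) and in 7.59% of all promoters. Windows of 1 gene can overlap, so a site in Fbln1 and one in Tnc entered these window counts more than once. The CArG box, a motif of serum response factor, was in 0 of the 27 and in 1.47% of all. These matches describe letters in the windows and show no binding.

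Among the fibrillar collagens, Col1a2, Col3a1 and Col5a1 fell in Balb/c-2 against F0. Balb/c-2 also had the lowest mean of the 4 passages for Col1a1, Col5a2 and Col11a1, which did not pass. Col1a1 and Col1a2 encode the chains that join into type I collagen, the main fibril of skin and stroma. Col1a2 (ENSMUSG00000029661, chromosome 6, 4504814 to 4541544, plus strand) was at 160595, 194143 and 126119 normalised reads in the F0 tumours (A, B and C in order, as in all such lists) and at 101646, 105029 and 88416 in N2.1. It was at 62944, 66307 and 64886 in Balb/c-2 and at 70682, 89206 and 107828 in CBA. Every F0 tumour lay above each of the other 9, and the 3 Balb/c-2 tumours lay below all others. In Balb/c-2 against F0 the log2 change was -1.29 ± 0.23 (SE, limma, adjusted p = 0.0123), 2.44-fold lower on the log2(value + 1) scale. It did not pass without F0 B (adjusted p = 0.0587) or with flow cell as covariate (-1.33, adjusted p = 0.0845).

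Col1a1 (ENSMUSG00000001506, chromosome 11, 94936224 to 94953042, plus strand) did not follow its partner chain. It was at 74432, 59848 and 48316 in F0, at 114536, 77796 and 84407 in N2.1, at 64611, 66013 and 41765 in Balb/c-2 and at 40705, 76132 and 83196 in CBA. The 3 N2.1 tumours lay above the F0 tumours, and the other passages overlapped with F0. The log2 change was 0.60 ± 0.32 in N2.1 (limma, adjusted p = 0.295) and -0.09 ± 0.32 in Balb/c-2 (adjusted p = 0.911), so neither passed.

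Col3a1, the chain of type III collagen (ENSMUSG00000026043, chromosome 1, 45311538 to 45349706, plus strand), was at 197328, 222324 and 139803 in F0 and at 110506, 113312 and 110887 in N2.1. It was at 84969, 58782 and 59775 in Balb/c-2 and at 91808, 71993 and 181998 in CBA. Balb/c-2 lay below F0 and N2.1 without overlap, and CBA C reached the F0 range while CBA A and B did not. The log2 change in Balb/c-2 against F0 was -1.45 ± 0.33 (limma, adjusted p = 0.0374), and adjusted p rose to between 0.0545 and 0.154 when F0 A, F0 B, Balb/c-2 B, Balb/c-2 C, CBA A or any N2.1 tumour was left out.

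Col5a1 (ENSMUSG00000026837, chromosome 2, 27886425 to 28039514, plus strand) encodes a chain of type V collagen, which starts fibrils. It was at 25345, 28451 and 20407 in F0, at 14539, 17736 and 12428 in N2.1, at 13728, 11163 and 7654 in Balb/c-2 and at 12028, 14615 and 21223 in CBA. F0 did not overlap with N2.1 or Balb/c-2, and CBA C lay inside the F0 range. The log2 change in Balb/c-2 against F0 was -1.22 ± 0.28 (limma, adjusted p = 0.0401). Adjusted p was between 0.0501 and 0.163 without any 1 F0 tumour, any 1 N2.1 tumour, Balb/c-2 B or Balb/c-2 C, and with flow cell as covariate Col3a1 and Col5a1 had adjusted p values of 0.293 and 0.33.

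The remaining fibrillar chains did not pass in any pair of passages. Col5a2, the partner of Col5a1 and the neighbour of Col3a1 on chromosome 1, had means of 29217 ± 8216 in F0 (SD, n = 3), 14757 ± 2432 in N2.1, 13569 ± 1875 in Balb/c-2 and 26003 ± 10675 in CBA. Its log2 changes against F0 were -0.96 ± 0.31 in N2.1 (limma, adjusted p = 0.0825) and -1.08 ± 0.31 in Balb/c-2 (adjusted p = 0.0829), with no overlap in either case. Col5a3 ranged from 1153 (CBA A) to 8329.6 (CBA B), so the lowest and the highest tumour came from the same passage. Col11a1, a chain of type XI collagen that is better known from cartilage, ranged from 98.9 in Balb/c-2 B to 2249 in CBA C, and its log2 change in Balb/c-2 against F0 was -2.63 ± 0.92 (adjusted p = 0.145).

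Because both chains are read in the same library, ratios between members do not depend on how a library was scaled. The ratio of Col1a1 to Col1a2 reads was 0.46, 0.31 and 0.38 in F0 and 1.13, 0.74 and 0.95 in N2.1. It was 1.03, 1.00 and 0.64 in Balb/c-2 and 0.58, 0.85 and 0.77 in CBA. All 3 F0 tumours lay below the other 9. An exact permutation test, which enumerated 15400 ways of dealing the tumours to passages, gave p = 0.00786, and 0.0432 after Benjamini-Hochberg adjustment over 11 ratios. The ratio of Col5a1 to Col1a1 moved the other way, at 0.34, 0.48 and 0.42 in F0 and between 0.13 and 0.30 in the other 9 tumours (two-sided exact permutation p = 0.0039, adjusted p = 0.0429). Per kb of transcript, Col1a1 stood at 0.347 ± 0.070 of Col1a2 in F0 (SD, n = 3), 0.848 ± 0.174 in N2.1, 0.801 ± 0.192 in Balb/c-2 and 0.662 ± 0.129 in CBA.

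The other 9 ratios did not pass after adjustment. Lum to Dcn, neighbouring genes on chromosome 10, was 0.81, 2.32 and 0.43 in F0 and between 0.043 and 0.097 in N2.1 (exact permutation p = 0.0266, adjusted p = 0.0626). Col3a1 to Col1a1 was between 2.65 and 3.71 in F0 and between 0.89 and 2.26 in the other 9 tumours, without overlap (exact permutation p = 0.0284, adjusted p = 0.0626). The ratio of the neighbouring genes Col6a1 and Col6a2, whose products join in type VI collagen, stayed between 1.04 and 2.07 over all 12 tumours (exact permutation p = 0.456, adjusted p = 0.501). With tumours of the first flow cell alone (70 partitions) 0 ratios passed, and both called ratios had an adjusted p of 0.0943 there. No ratio passed without any 1 of F0 A, F0 B, F0 C, N2.1 A, N2.1 C, Balb/c-2 A or CBA A, and without CBA B 6 passed.

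**Figure D3:**
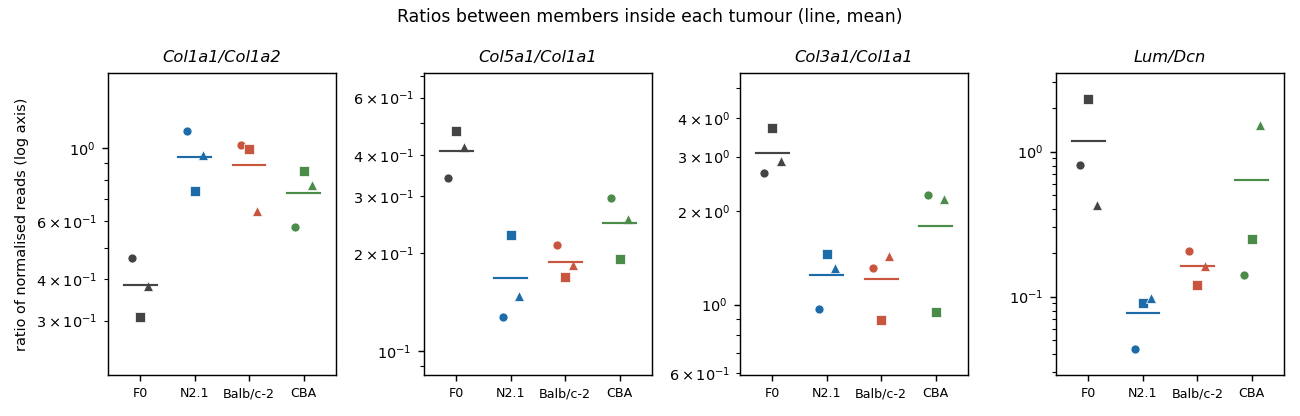
Ratio of normalised reads of 2 members inside each tumour (log axis; circle A, square B, triangle C; line, mean of 3). F0 tumours lie below all others for Col1a1/Col1a2 and above all others for Col5a1/Col1a1 and Col3a1/Col1a1, and Lum/Dcn lies lowest in N2.1.

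Among the collagens outside fibrils, Col14a1 was the member that passed. Col14a1 encodes a chain of type XIV collagen, which sits on the surface of fibrils (ENSMUSG00000022371, chromosome 15, 55307750 to 55520803, plus strand). It was at 638, 1239.5 and 167 in F0, at 827, 1049 and 1363 in N2.1, at 1097, 764 and 579.8 in Balb/c-2 and at 83.9, 230.1 and 88.4 in CBA. CBA lay below N2.1 and below Balb/c-2 without overlap, and F0 C lay inside the CBA range. In CBA against N2.1 the log2 change was -3.13 ± 0.63 (limma, adjusted p = 0.0124), 8.78-fold lower. Adjusted p was between 0.0509 and 0.0598 without N2.1 C, CBA A or CBA C, and 0.445 with flow cell as covariate.

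Chains of type VI collagen, which form beaded filaments around cells, were lowest in Balb/c-2 on average but did not pass. Col6a1 had means of 32269.6 ± 8901 in F0 (SD, n = 3), 18116 ± 5395 in N2.1, 12364 ± 4067 in Balb/c-2 and 31236 ± 22101 in CBA, where CBA C stood at 56499 and the other two at 21735 and 15475. Its log2 change in Balb/c-2 against F0 was -1.39 ± 0.44 (limma, adjusted p = 0.112), and that of Col6a2 was -1.09 ± 0.39 (adjusted p = 0.159). Col6a3 ranged from 17717 (Balb/c-2 C) to 76176 (N2.1 B). Col8a1, a network-forming chain made around vessels, had means of 4173 ± 699.5 in F0 and 1614 ± 961 in Balb/c-2 without overlap, a log2 change of -1.55 ± 0.43 (adjusted p = 0.0741). Col12a1, a chain on the surface of fibrils, ranged from 2170 (Balb/c-2 C) to 9449 (Balb/c-2 B), both in the same passage.

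Postn differed most between passages among the adhesive and matricellular genes (ENSMUSG00000027750, chromosome 3, 54361109 to 54391037, plus strand). It was at 36549, 75365 and 24076 in F0 and at 3385, 3196 and 3169 in N2.1. In Balb/c-2 it was at 8139.9, 9072 and 4009, and in CBA at 19864, 19261 and 61374. The N2.1 tumours lay within 7% of each other and below all other tumours, and Balb/c-2 lay between N2.1 and the other passages without overlap. CBA overlapped with F0.

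In N2.1 against F0, Postn had a log2 change of -3.64 ± 0.50 (limma, adjusted p = 0.00243), 12.5-fold lower, and it passed under all 21 alternatives tried for this comparison. In CBA against N2.1 it was 8.81-fold higher (log2 change 3.14 ± 0.50, adjusted p = 0.00332). That call held when any single tumour was left out, and adjusted p was 0.149 with flow cell as covariate. In Balb/c-2 against F0 the log2 change was -2.60 ± 0.50 (adjusted p = 0.0185), with adjusted p between 0.0521 and 0.076 without F0 A, F0 B or Balb/c-2 C and 0.173 with flow cell as covariate.

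Sparc (ENSMUSG00000018593, chromosome 11, 55394500 to 55423183, minus strand) was at 79665, 111238 and 67174 in F0, at 61903, 55664 and 51731 in N2.1, at 51991, 29640.2 and 36650.4 in Balb/c-2 and at 44930 (A), 43002 (B) and 61962 (C) in CBA. Every F0 tumour lay above the other 9. The log2 change in Balb/c-2 against F0 was -1.13 ± 0.27 (limma, adjusted p = 0.0431). It was the least steady of the calls in this comparison together with Fap: adjusted p was between 0.0524 and 0.189 without any 1 of 10 tumours (all of F0 and N2.1, Balb/c-2 B and C, CBA A and C) and 0.373 with flow cell as covariate.

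Fn1 encodes fibronectin, which links cells to the matrix (ENSMUSG00000026193, chromosome 1, 71585520 to 71653200, minus strand). It was at 110534, 84347 and 76776 in F0, at 116581, 317012 and 130856 in N2.1, at 63925, 186435 and 58587 in Balb/c-2 and at 165772, 92834 and 173170 in CBA. N2.1 lay above F0 without overlap, and N2.1 B stood apart at more than double the other two. The log2 change in N2.1 was 0.92 ± 0.49 (limma, adjusted p = 0.299), which did not pass.

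Thbs2, a thrombospondin that binds growth factors and proteases (ENSMUSG00000023885, chromosome 17, 14665500 to 14694235, minus strand), was lower in CBA than in N2.1. It was at 1491, 2401 and 1174 in F0, at 2518, 3332 and 2229.8 in N2.1, at 966, 2808 and 1215 in Balb/c-2 and at 805, 1053 and 923 in CBA. CBA lay below F0 and N2.1 without overlap. The log2 change against N2.1 was -1.53 ± 0.38 (limma, adjusted p = 0.0344), and adjusted p was between 0.0548 and 0.124 without F0 A or any 1 of the 6 tumours compared. Its relative Thbs1, which can activate latent TGF-beta, had means of 2289.8 ± 907 in F0 and 8027 ± 2223 in N2.1 without overlap, a log2 change of 1.86 ± 0.61 (adjusted p = 0.0839). Tnc, tenascin C of wounds and tumour stroma, ranged from 549 to 6307 within F0 alone and passed in no comparison.

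Among the proteoglycans, Dcn rose in N2.1 alone of the later passages by the tests against F0, and Lum was lower in every later passage without passing. Dcn (ENSMUSG00000019929, chromosome 10, 97479609 to 97518143, plus strand) was at 5716, 1786 and 8072 in F0 and at 44534, 10566 and 24845 in N2.1. In Balb/c-2 it was at 7961, 7446 and 7597 and in CBA at 4984, 5295 and 2105. N2.1 lay above all other tumours, CBA lay below Balb/c-2, and F0 overlapped with both. Against F0 the log2 change was 2.38 ± 0.60 (limma, adjusted p = 0.0346), 5.21-fold, and in CBA against N2.1 it was -2.57 ± 0.60 (adjusted p = 0.0245). The first had an adjusted p between 0.0604 and 0.138 without F0 A, F0 B, N2.1 A or N2.1 C. The second had one between 0.0514 and 0.106 without N2.1 A, N2.1 C, CBA A or CBA C, and of 0.415 with flow cell as covariate.

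Lum encodes lumican, a proteoglycan that spaces fibrils, and lies beside Dcn. Its means were 4073 ± 572 in F0 (SD, n = 3), 1764 ± 744 in N2.1, 1257 ± 379 in Balb/c-2 and 1752 ± 1319 in CBA, and F0 lay above all other tumours. The log2 changes were -1.30 ± 0.50 (limma, adjusted p = 0.138), -1.73 ± 0.50 (adjusted p = 0.0827) and -1.49 ± 0.50 (adjusted p = 0.124). None passed after adjustment over all genes, with unadjusted limma p values of 0.0235, 0.00489 and 0.0118.

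Bgn (ENSMUSG00000031375, chromosome X, 73483602 to 73495933, plus strand) passed over the 4 passages together and in no pair. It was at 129603, 215640.1 and 118033 in F0, at 76171, 104288 and 86440.4 in N2.1, at 57449.7, 77086 and 58576 in Balb/c-2 and at 155315, 110711 and 215943 in CBA. Every F0 and CBA tumour lay above every N2.1 and Balb/c-2 tumour. The F test gave an adjusted p of 0.0379 (limma), which was between 0.0543 and 0.0867 without F0 A, F0 B, N2.1 A, N2.1 B, N2.1 C, Balb/c-2 A, Balb/c-2 C, CBA A or CBA C. The log2 change in Balb/c-2 against F0 was -1.22 ± 0.30 (adjusted p = 0.0509). Vcan, a large proteoglycan, ranged from 2909 (Balb/c-2 A) to 14980.5 (F0 B) and did not pass. Fmod, fibromodulin of tendon and cartilage, was close to absent: 0 in CBA B, at most 51.5 in 11 tumours and 246 in Balb/c-2 A.

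**Figure D4:**
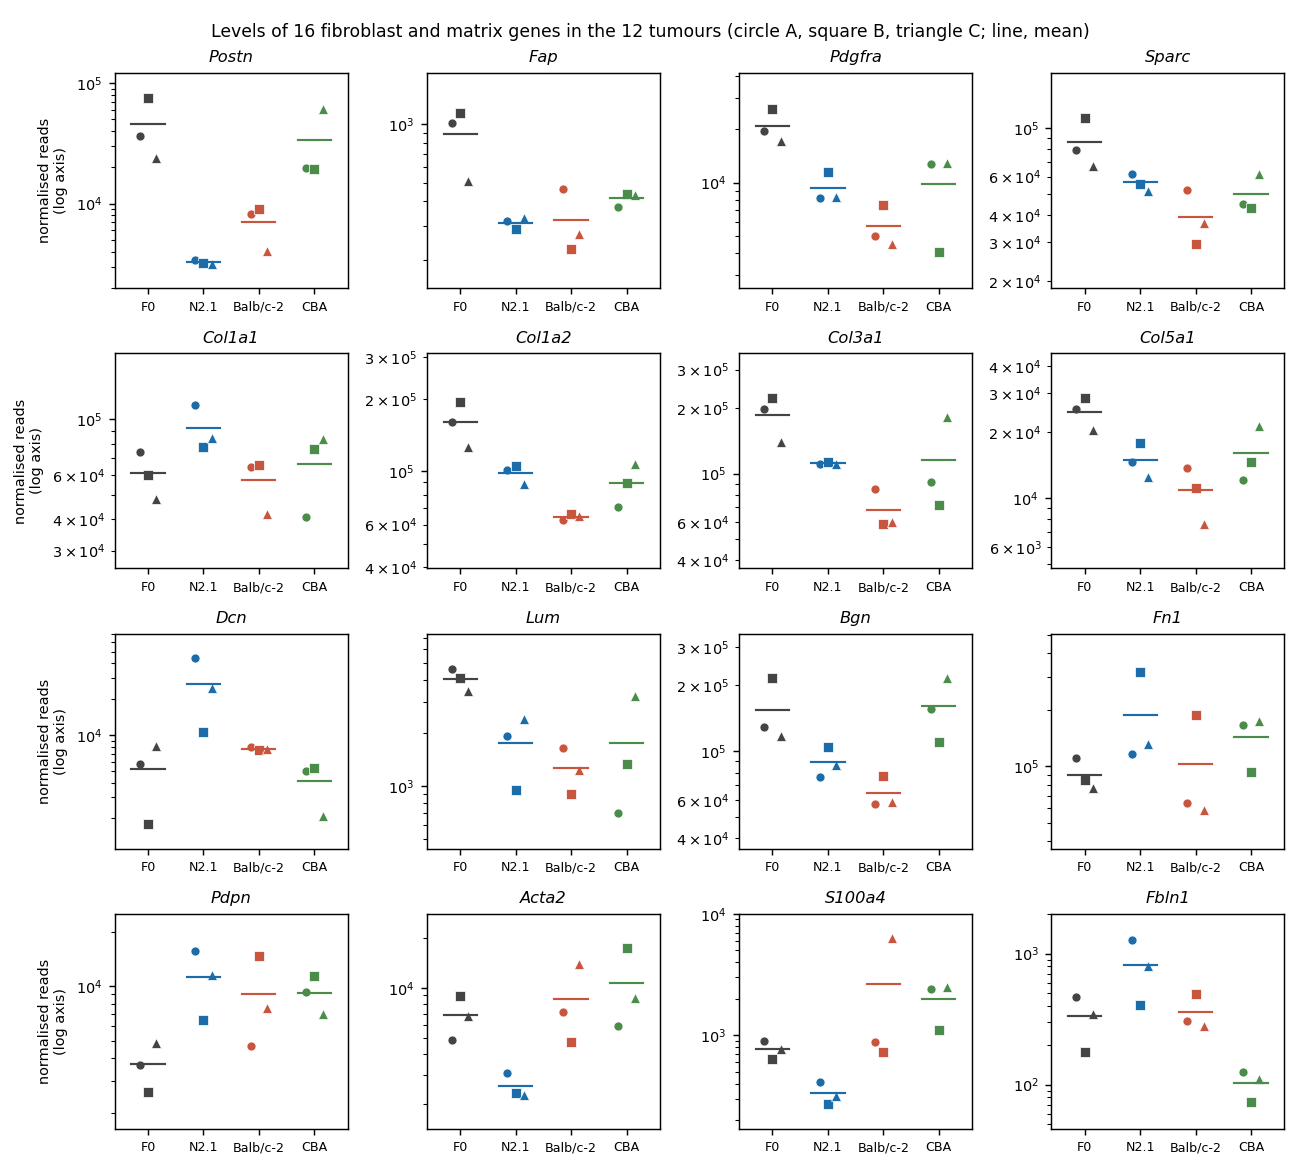
Normalised reads of 16 members in each of the 12 tumours (log axes; circle A, square B, triangle C; line, mean of 3). Postn is lowest in N2.1 at 3169 to 3385, Dcn is highest there, and Fbln1 is lowest in CBA.

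Of the elastic fibre genes, Fbln1 passed. Fbln1 encodes fibulin 1, which binds fibronectin and elastic fibres (ENSMUSG00000006369, chromosome 15, 85205949 to 85286535, plus strand). It was at 469.5, 177 and 347 in F0, at 1260.5, 405 and 806 in N2.1, at 308, 492 and 279 in Balb/c-2 and at 124, 73.5 and 111 in CBA. The 3 CBA tumours lay below the other 9. In CBA against N2.1 the log2 change was -2.88 ± 0.47 (limma, adjusted p = 0.00355), 7.34-fold lower, and it held when any single tumour was left out, with an adjusted p of 0.171 with flow cell as covariate. Fbln2, a related fibulin, had means of 2382 ± 1412 in F0 (SD, n = 3) and 5832 ± 1233 in N2.1 without overlap (log2 change 1.53 ± 0.54, adjusted p = 0.106).

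Eln, tropoelastin of elastic fibres, varied most of the members with reads in all tumours, by 137-fold from 74.7 in CBA B to 10251 in F0 B. Its mean was 5286 ± 4338 in F0 and 519.5 ± 310.3 in N2.1, a log2 change of -3.22 ± 1.28 that did not pass (limma, adjusted p = 0.152). Fbn1, the microfibril protein fibrillin 1, ranged from 1725 (Balb/c-2 C) to 9158 (Balb/c-2 B). A predicted gene on the opposite strand, Gm9913, overlaps 20.1% of the exonic bases of Fbn1 and was itself at 31.6 reads or fewer.

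The markers of fibroblasts did not move as 1 group. Fap (ENSMUSG00000000392, chromosome 2, 62500943 to 62574075, minus strand) was at 1011, 1143 and 509.7 in F0, at 318, 287 and 329 in N2.1, at 465, 229 and 274 in Balb/c-2 and at 376, 439 and 432 in CBA. Every F0 tumour lay above the other 9, with F0 C nearest to them. The log2 changes against F0 were -1.43 ± 0.34 in N2.1 (limma, adjusted p = 0.0273) and -1.44 ± 0.34 in Balb/c-2 (adjusted p = 0.0423), and -1.01 ± 0.34 in CBA (adjusted p = 0.126). These comparisons share the F0 tumours. In N2.1 adjusted p was between 0.0799 and 0.121 without F0 A, F0 B or any 1 N2.1 tumour, and in Balb/c-2 it was between 0.0598 and 0.185 without any 1 of 9 tumours and 0.373 with flow cell as covariate.

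Pdgfra encodes a PDGF receptor that most fibroblasts carry (ENSMUSG00000029231, chromosome 5, 75152292 to 75198215, plus strand). It was at 19520.1, 26009 and 17267 in F0, at 8180.3, 11405 and 8313 in N2.1, at 4996, 7494 and 4505 in Balb/c-2 and at 12656, 4026 and 12899 in CBA. F0 lay above the other 9 tumours, and CBA B was the lowest of all 12. The log2 change in Balb/c-2 against F0 was -1.90 ± 0.41 (limma, adjusted p = 0.0287), 3.73-fold lower. Adjusted p was between 0.0505 and 0.125 without any 1 F0 tumour, N2.1 C, Balb/c-2 A or Balb/c-2 C, and with tumours of the first flow cell alone it was 0.0332.

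Acta2 encodes the smooth muscle actin of myofibroblasts and vessel walls (ENSMUSG00000035783, chromosome 19, 34241090 to 34255590, minus strand). It was at 4876, 8914 and 6740.1 in F0, at 3063, 2348 and 2284 in N2.1, at 7177, 4720.3 and 13820 in Balb/c-2 and at 5908, 17385 and 8688 in CBA. N2.1 lay below all other tumours. In CBA against N2.1 the log2 change was 1.92 ± 0.44 (limma, adjusted p = 0.022), with an adjusted p between 0.0523 and 0.0872 without any 1 N2.1 tumour, CBA B or CBA C and of 0.433 with flow cell as covariate. CBA B, which had the highest Acta2, was split over the 14 other contractile genes listed: it was the highest of the 12 tumours for Actg2 (1358), Myl9 (1665), Tpm2 and Cnn2, and the lowest for Myh11 (0), Lmod1 (10.7) and Synpo2 (139).

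S100a4, a calcium-binding protein also called fibroblast-specific protein, was at 894, 645 and 776 in F0, at 411, 273 and 319.7 in N2.1, at 885, 735 and 6270.1 in Balb/c-2 and at 2395, 1115 and 2524 in CBA (ENSMUSG00000001020, chromosome 3, 90603771 to 90606045, plus strand). N2.1 lay below all other tumours, and Balb/c-2 C stood apart at the top. CBA exceeded N2.1 by a log2 change of 2.51 ± 0.66 (limma, adjusted p = 0.0405), with an adjusted p between 0.0579 and 0.141 without F0 A, F0 C, CBA A, CBA C or any 1 N2.1 tumour. The predicted gene Gm42674 shares 51.7% of its exonic bases on the same strand and had at most 1.25 normalised reads.

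Pdpn (ENSMUSG00000028583, chromosome 4, 143267431 to 143299564, minus strand) was at 3657, 2620.3 and 4883 in F0, at 15682, 6498 and 11503 in N2.1, at 4705, 14748 and 7600.4 in Balb/c-2 and at 9271, 11387 and 7025 in CBA. N2.1 and CBA lay above F0 without overlap. The log2 change in N2.1 was 1.55 ± 0.43 (limma, adjusted p = 0.0498), at the edge of the threshold, and that in CBA was 1.33 ± 0.43 (adjusted p = 0.112). The call in N2.1 was lost in 14 of 21 alternatives, with adjusted p between 0.0521 and 0.191 without any 1 F0 tumour, any 1 CBA tumour, N2.1 A, N2.1 C or Balb/c-2 C.

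Tagln, transgelin of smooth muscle, had only 5.78 to 36.8 normalised reads in any tumour, against 2284 to 17385 for Acta2. Genes on the opposite strand cover 67.9% of its exonic bases, Gm48529 the most of them (11.9 to 51.3 reads). Pcsk7, another gene with exons that overlap a member, was at 1111 to 1768 reads. As the strand setting of the counting is not given in the sources used here, its values are uncertain.

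Genes that fold, modify and trim procollagen fell in part in Balb/c-2. Of 22 tested, 5 fell against F0 and 0 rose, with a median log2 change of -0.54 against -0.02 for all genes, and in N2.1 and CBA 1 each fell. For this list and those below, the share of all genes called against F0 was 7.91% in N2.1, 3.51% in Balb/c-2 and 5.04% in CBA. It was 7.15% in CBA against N2.1, and a list count near these shares is no result about the list. Adamts2, which cuts the amino-terminal propeptide from procollagen, was at 4723, 9048 and 5157 in F0, at 2159.6, 2561 and 2392 in N2.1, at 1487, 1769 and 1234 in Balb/c-2 and at 503, 256 and 447 in CBA. No tumour of a passage overlapped with another passage. Adamts2 was lower than in F0 by log2 changes of -1.35 ± 0.31 in N2.1 (limma, adjusted p = 0.023), -2.03 ± 0.31 in Balb/c-2 (adjusted p = 0.00492) and -3.96 ± 0.31 in CBA (adjusted p = 3.05e-05). The first was lost without F0 B, N2.1 A or N2.1 C (adjusted p between 0.0827 and 0.0961), and those in Balb/c-2 and CBA held when any 1 tumour was left out, with an adjusted p in Balb/c-2 of 0.063 with flow cell as covariate. Also in Balb/c-2 against F0, the hydroxylase genes P3h3 and Plod1 fell, with log2 changes of -1.57 ± 0.32 (adjusted p = 0.0219) and -1.27 ± 0.24 (adjusted p = 0.0171). P3h3 had an adjusted p between 0.0625 and 0.0996 without F0 A, F0 B or Balb/c-2 C, and Plod1 one between 0.0551 and 0.0815 without F0 A or F0 B, and neither passed with flow cell as covariate (0.27 and 0.204).

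Of 14 other elastic fibre and microfibril genes, 1 rose and 1 fell in N2.1 against F0, 1 rose and 4 fell in Balb/c-2, and 1 rose and 3 fell in CBA. Efemp1, a fibulin-like glycoprotein, went from 6348 ± 683 in F0 (SD, n = 3) to 1238 ± 219.6 in Balb/c-2 and 755 ± 94.5 in CBA. The log2 changes were -2.37 ± 0.27 (limma, adjusted p = 0.000854) and -3.07 ± 0.27 (adjusted p = 9.85e-05), and both passed under every alternative tried. Fbln5, fibulin 5 of elastic fibres, fell in N2.1 from 3166 ± 1201 to 448 ± 28.0 (log2 change -2.75 ± 0.46, adjusted p = 0.00603), and Emilin2 rose from 2618 ± 458 to 10095 ± 53.3 (1.96 ± 0.24, adjusted p = 0.00121). Both of these also passed under every alternative tried.

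Of the 10 small leucine-rich proteoglycans outside the set 8 were tested, and against F0 1 rose and 4 fell in N2.1, while 1 fell in Balb/c-2 and 1 in CBA. Aspn, asporin, went from 2653 ± 2356 in F0 (SD, n = 3) to 120 ± 33.6 in N2.1 (log2 change -4.02 ± 0.69, limma, adjusted p = 0.0065), and Podn, podocan, from 64.6 ± 28.5 to 603 ± 119 (3.28 ± 0.46, adjusted p = 0.00258). Podn and Prelp then fell in CBA against N2.1, Prelp from 2068 ± 195 to 96.6 ± 75.6 (-4.67 ± 0.77, adjusted p = 0.00396). With flow cell as covariate the adjusted p values of these last 2 calls were 0.323 and 0.449.

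Of 26 other matricellular and interstitial proteins, 2 rose and 3 fell in N2.1 against F0, 2 rose and 6 fell in Balb/c-2, and 2 rose and 4 fell in CBA. Tnxb, tenascin X, which is known to support collagen fibrils in skin, rose from 48.0 ± 28.4 in F0 (SD, n = 3) to 940 ± 376 in N2.1 (log2 change 4.34 ± 0.68, limma, adjusted p = 0.00469) and was at 36.7 ± 9.56 in CBA. Col7a1, the anchoring fibril collagen of the skin, went from 2132 ± 1051 in F0 to 13833 ± 3395 in CBA (2.78 ± 0.51, adjusted p = 0.0101). Col15a1, a collagen next to basement membranes, went from 5669.9 ± 2655 to 642 ± 180.2 (-3.04 ± 0.36, adjusted p = 0.000701), with an adjusted p of 0.12 with flow cell as covariate.

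Ligands, receptors and SMADs of the TGF-beta pathway, which is known to induce collagen genes in fibroblasts, were lower in part in Balb/c-2. Of 18 tested against F0, 1 rose in N2.1, 2 fell in Balb/c-2 and 1 fell in CBA, where 7.91%, 3.51% and 5.04% of all genes were called. The median log2 changes were 0.04, -0.64 and -0.16, against -0.02, -0.02 and -0.08 for all genes. In Balb/c-2 the ligand Tgfb3 went from 4027 ± 1617 to 1249 ± 698 (SD, n = 3; log2 change -1.75 ± 0.40, limma, adjusted p = 0.0389) and the co-receptor Tgfbr3 from 3947 ± 524 to 1818 ± 432 (-1.14 ± 0.26, adjusted p = 0.0399). Both calls were lost in 14 of 22 alternatives, with adjusted p up to 0.163. Both were lost without F0 A, F0 B, Balb/c-2 C, N2.1 A, N2.1 C, CBA A or CBA C.

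Of the 5 PDGF ligands and receptor partners, Pdgfrb, a PDGF receptor of fibroblasts and pericytes, averaged 13069 ± 4601 in F0 (SD, n = 3), 5189 ± 1301 in N2.1 (log2 change -1.30 ± 0.36, limma, adjusted p = 0.0474) and 3818 ± 1414 in Balb/c-2 (-1.80 ± 0.36, adjusted p = 0.0212). The call in Balb/c-2 was lost without F0 A, F0 B or Balb/c-2 C (adjusted p between 0.054 and 0.0935) and with flow cell as covariate (0.212), and that in N2.1 without F0 A, F0 B, Balb/c-2 A or any N2.1 or CBA tumour (between 0.0506 and 0.191). Of 14 matrix receptors, 1 rose and 1 fell in Balb/c-2 against F0. Mrc2, an endocytic receptor for collagen, was the one that fell, from 19456 ± 2919 to 6596 ± 2074 (-1.59 ± 0.26, adjusted p = 0.00696), and it held when any single tumour was left out but not with flow cell as covariate (0.118).

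Markers of fibroblasts outside the set split in direction too. Of 22 tested (23 listed), 2 rose and 3 fell in N2.1 against F0, 2 rose and 4 fell in Balb/c-2, 3 fell in CBA, and 4 fell in CBA against N2.1. Pi16, a marker of adventitial fibroblasts, was at 377, 198 and 375 in F0, at 2633, 1652 and 4043 in N2.1, at 2787, 679 and 1752 in Balb/c-2 and at 81.2, 168 and 66.0 in CBA. It was higher in N2.1 than in F0 (log2 change 3.09 ± 0.54, limma, adjusted p = 0.00692), and it was lower in CBA than in N2.1 (-4.73 ± 0.54, adjusted p = 0.000363). Clec3b, tetranectin of the same fibroblasts, was lower in CBA than in N2.1 by a log2 change of -7.06 ± 1.15 (adjusted p = 0.00355), at 5.54 ± 5.60 against 638 ± 385 (SD, n = 3). These 2 calls of CBA against N2.1 were lost only with flow cell as covariate, and the call of Pi16 in N2.1 against F0 under no alternative. Cd34, a surface marker of fibroblasts and of endothelium, went from 13817 ± 2859 in F0 to 3358 ± 1112 in CBA (-2.07 ± 0.27, adjusted p = 0.00118, and 0.0799 with flow cell as covariate). Tcf21, a regulator in some tissue fibroblasts, was at 0 in N2.1, Balb/c-2 and CBA and at 2.89 in F0 C alone.

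Markers of other cell types differed between passages too, not always where members passed: in Balb/c-2 against F0 the call among them was 1 macrophage gene, Cd163, which was higher. The summed level of 12 macrophage markers was 127706 to 140520 in F0, 233821 to 261059 in N2.1, 122299 to 215228 in Balb/c-2 and 84774 to 203795 in CBA, and 3 of 12 rose in N2.1 against F0. The 12 endothelial markers summed to 17051 to 23656 in F0, 20578 to 23956 in N2.1, 17842 to 20354 in Balb/c-2 and 16682 to 17223 in CBA. Sums follow the most abundant markers. The mean log2(value + 1) of the 12 was 9.07 to 9.94 in F0, 9.15 to 9.86 in N2.1, 9.38 to 9.85 in Balb/c-2 and 8.14 to 8.57 in CBA. In CBA 5 of 12 fell against F0 and 6 of 12 against N2.1, with median log2 changes of -1.09 and -1.34. The 7 pericyte markers summed to 5265 to 10748 in F0, 8318 to 14315 in N2.1, 5100.1 to 8234 in Balb/c-2 and 6280.4 to 8401 in CBA, and 1 of 7, Rgs5, fell in CBA against each other passage. CBA shared no flow cell with F0 or N2.1. With flow cell as covariate, the genes called in all fell from 882 to 65 in CBA against F0 and from 1250 to 118 in CBA against N2.1. The macrophage, endothelial and pericyte lists had every marker above 0 in at least 1 tumour of each passage.

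The 10 adipocyte markers summed to 653 to 1751 in F0, 2848 to 16185 in N2.1, 1138 to 50128 in Balb/c-2 and 645 to 1139.6 in CBA, and 3 of 10 fell in CBA against N2.1. Adipoq, the adipocyte hormone adiponectin, was at 2426 in Balb/c-2 A and at 0 in CBA B and C. The 10 measured skeletal muscle markers summed to 258 to 4908 in F0, 85.8 to 8525 in N2.1, 1219.7 to 10965 in Balb/c-2 and 103 to 286 in CBA, with Myh1 at 0 in all 3 CBA tumours and 0 of 10 called in any comparison with F0. The 14 contractile genes outside the set summed to 82081 to 106389 in F0, 61836 to 71431 in N2.1, 71361 to 87845 in Balb/c-2 and 77115 to 99324 in CBA, and 1 of 14 fell in CBA against F0. The 10 leukocyte markers summed to 23883 to 35665 in F0, 57216 to 58253 in N2.1, 37353 to 101208 in Balb/c-2 and 31314 to 41762 in CBA, and 1 of 10 rose in N2.1. The 9 keratinocyte markers summed to 93.3 to 380 in all tumours, with Krt14, Krt1 and Krt15 at 0 in F0, Krt5 and Lor in N2.1 and Krt5 and Dsg3 in CBA, and of 4 tested 1 rose and 1 fell in N2.1 against F0. The 11 measured melanocyte markers summed to 523 to 841 in F0, 1404 to 2995 in N2.1, 582 to 1901 in Balb/c-2 and 644 to 1291 in CBA, and of 5 tested 0 passed against F0 (limma). Kit was at 980 ± 591 in N2.1 and 187 ± 88.7 in CBA (SD, n = 3). It was called lower in CBA against N2.1 (log2 change -2.34 ± 0.64, limma, adjusted p = 0.0478), a call lost in 14 of 21 alternatives. The part of these markers in the results on the 34 genes was not tested.

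**Figure D5:**
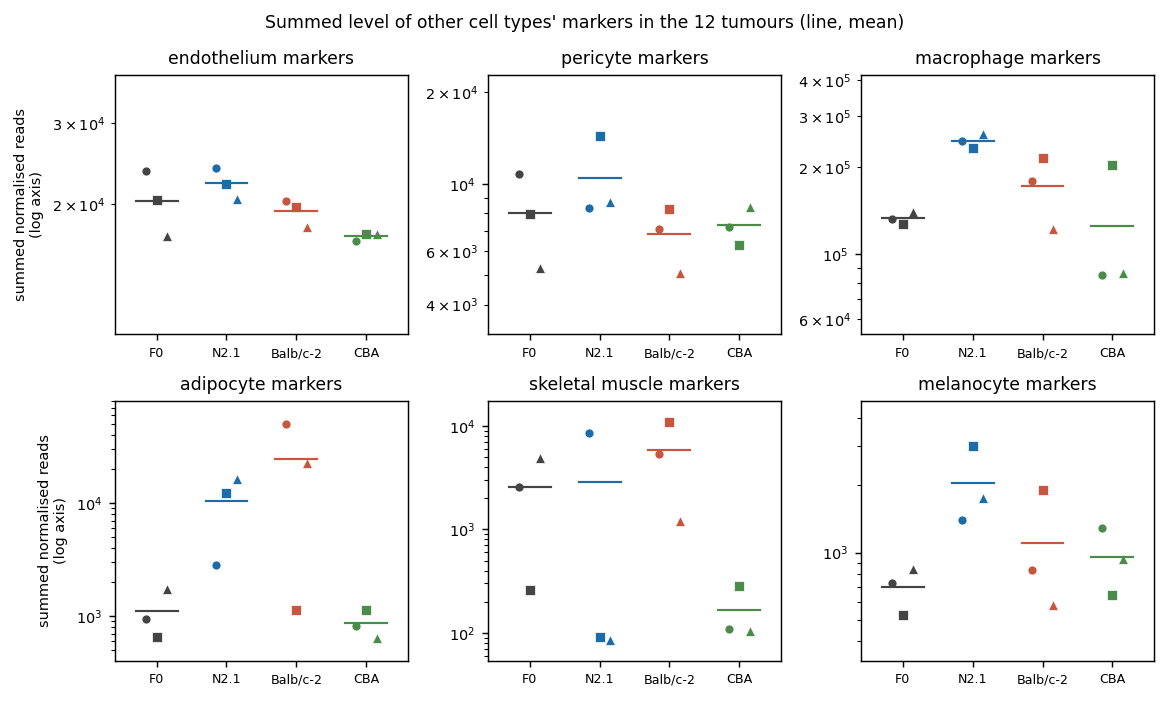
Summed normalised reads of marker lists of other cell types in each tumour (log axes; circle A, square B, triangle C; line, mean of 3). Macrophage sums are highest in N2.1 at 233821 to 261059. Endothelial sums are 16682 to 17223 in CBA, a range that also holds F0 C at 17051. Adipocyte and skeletal muscle sums differ widely between tumours of a passage.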

How the data were processed

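The labels name polyA RNA of 12 tumours, 3 per passage. The submitters' processing notes list the genome build mm10 and the tools featureCounts 1.5.0-p3, HISAT2 2.0.5 and StringTie 1.3.3b. Which tool normalised the reads, the strand setting and the handling of multi-mapping reads were not given in the sources used here, and the labels' protocols describe directional and non-directional libraries alike. The authors deposited a normalised signal per gene and repeat copy. In each library 100% of values were whole multiples of 1 step (tolerance 0.1 reads), so reads were recovered with factors of 0.8032 to 1.2097. On these reads edgeR called 455 genes in Balb/c-2 against F0 and 1605 over the 4 passages, against 614 and 1880 with limma.

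The 17491 genes whose deposited signal reached 10 or more in 3 or more tumours were fitted with limma 3.58.1 in R 4.3.3 on log2(value + 1), with a mean per passage over all 12 tumours (8 residual degrees of freedom), a trended prior and robust moderation. Two-sided p-values were adjusted over all genes tested by the Benjamini-Hochberg method and called under 0.05. A change is a difference of mean log2 values, so it understates the change of low genes. The 11 ratios of members were compared by an exact permutation test. Levels per kb use the longest protein-coding GENCODE M21 transcript. Fits were tested on simulated counts first.

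The 34 members, the 17 other gene lists and the ratios were chosen with earlier results of these data known. Values in every tumour are given for members called in any comparison and for Col1a1, Col1a2, Col3a1, Fn1, Sparc, Postn, Fap, Pdgfra and Acta2. From each other list up to 3 called genes per comparison, those with the largest change, could be named. Genes named beyond this (contractile genes in CBA B, Tcf21, Adipoq in single tumours and the overlapping genes) were chosen after their values were seen. Alternatives were a pseudocount of 5, no filter, quantile normalization, edgeR 4.0.16 and DESeq2 1.42.0 on the recovered reads, the flow cell as a covariate, the tumour letter as a block, only the 6 tumours compared, tumours of 1 flow cell, and each tumour left out. Leaving out F0 B and Balb/c-2 A together was added after seeing the data.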

Additional observations from a re-analysis of the deposited data

How the results depend on the processing

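No pairwise call of a single gene changed sign in any alternative that gave it an adjusted p. The F test has no direction, so its calls could not reverse. Of calls of single members, F test included, 350 alternatives kept the call and 214 lost it, and of genes of the other lists 1681 kept it and 605 lost it. Under quantile normalization the all-gene median went from -0.015 to -0.115 (log2) in N2.1 against F0 and from -0.079 to 0.074 in CBA against N2.1, where 4 and 7 members passed. In N2.1 against F0 the count of members called, 4, was 11 with only the 6 tumours compared, 11 with DESeq2 and 1 without F0 B and Balb/c-2 A together. The genes called in all went in the same order from 1383 to 2615, 2663 and 555. In Balb/c-2 against F0 the count of 7 was 1 with flow cell as covariate, 2 with only the 6 tumours compared, 2 with tumours of 1 flow cell, 3 with edgeR, 13 with DESeq2 and 0 without F0 B and Balb/c-2 A together. The genes called in all in Balb/c-2 against F0 went from 614 to 261 (flow cell as covariate), 172 (only the 6 tumours), 455 (edgeR), 1907 (DESeq2) and 233 (without both tumours). In the 3 comparisons with a count of 0, DESeq2 gave 5 for CBA against F0, 2 for Balb/c-2 against N2.1 and 6 for CBA against Balb/c-2, and quantile normalization gave 1 in Balb/c-2 against N2.1. With DESeq2 the genes called in all went there from 882, 406 and 182 to 1786, 1281 and 1035. The 7 of CBA against N2.1 became 0 with flow cell as covariate, where the genes called in all went from 1250 to 118. The 9 of the F test became 18 with DESeq2, 3 with flow cell as covariate and 3 without F0 B and Balb/c-2 A together, while the genes called in all went from 1880 to 4359, 1096 and 1311. The 2 ratios called became 0 with tumours of 1 flow cell and 0 without F0 B and Balb/c-2 A together. The cause of these shifts was not tested.

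Leaving out 1 tumour in turn gave 1 to 6 members in N2.1 against F0, 0 to 9 in Balb/c-2 against F0, 0 to 2 in CBA against F0, 0 to 6 in Balb/c-2 against N2.1, 2 to 7 in CBA against N2.1, 0 to 1 in CBA against Balb/c-2 and 3 to 14 in the F test, and 0 to 6 ratios. The genes called in all ran in the same order from 462 to 2093, 227 to 817, 450 to 1155 and 177 to 1486. In the last 2 comparisons and the F test they ran from 545 to 1788, 52 to 311 and 956 to 3199. The tumour letters are only shared names: deviations from the passage means correlated between -0.407 and 0.478 for same-letter tumours, over 0.1 for 7 of 18 pairs. With the replicate block by letter, 3 members passed in N2.1 against F0, 3 in Balb/c-2 against F0, 7 in CBA against N2.1, 6 in the F test and 0 in the other comparisons, and 0 ratios passed (576 partitions, adjusted p = 0.111 for both called ratios). The genes called in all in the first 3 and the F test were 1077, 417, 1088 and 1458. Few reads lay on Fmod, outside Balb/c-2 A, and on Tagln, so their values are less certain. The reason was not tested.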
